A study of Mus musculus with 18 samples.

Results

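The phagocyte NADPH oxidase genes analysed here are Cybb, Cyba, Ncf1, Ncf4 and Rac2, 5 of the 22367 protein-coding genes of the mouse annotation (GENCODE vM1, build mm9). They were taken by name, and the locus of each gene was its annotated span plus 20 kb on either side. Binding was followed in these loci for the 3 factors PU.1, C/EBPα and C/EBPβ in C10 cells, a single pre-B cell line that carries a GFP-tagged C/EBPα fused to the hormone-binding part of the estrogen receptor (C/EBPαER). The hormone β-estradiol switches this fusion on, and the line is used as a model of conversion to macrophages. All 18 ChIP-seq libraries share this line, this transgene and a medium with IL-3 and CSF-1. The cells of 0 hr post-induction (hpi) were the ethanol-treated control and all others received β-estradiol. C/EBPα was precipitated at 0 hpi, at 10, 30 and 60 min and at 3, 12, 24 and 48 hpi. PU.1 and C/EBPβ were precipitated at 0, 3, 12, 24 and 48 hpi. Each factor and time point had 1 library, so no value below has a replicate and no test between libraries was possible: intervals are 95% intervals for counting error only, and a change is called a rise or a fall where it reached 2-fold. The C/EBPα antibody does not tell the fusion from the cell's own protein. The identity of the cells could not be checked against marker genes, because no expression values were analysed here.

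The phagocyte NADPH oxidase passes electrons from NADPH to oxygen and so makes superoxide, with which neutrophils and macrophages attack microbes. Its core is a membrane flavocytochrome made of gp91phox (NOX2, encoded by Cybb), which carries the electrons, and p22phox (Cyba), which stabilises it. On activation a complex of cytosolic proteins joins the core, among them the organiser p47phox (Ncf1), the phosphoinositide-binding p40phox (Ncf4) and the small GTPase Rac2. Inherited loss of a subunit leaves phagocytes unable to kill some microbes, as in chronic granulomatous disease. PU.1 is an ETS factor that B cells and macrophages share, and C/EBPα and C/EBPβ are leucine zipper factors of the myeloid lineage that recognise the same DNA.

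The C/EBPα libraries held 5968544 to 24909437 usable reads and the PU.1 libraries 6574957 to 11349498. C/EBPβ had the fewest, 2901164 to 5843194. The C/EBPα libraries of 10, 30 and 60 min had reads of 50 bases from another sequencer than the 36-base reads of the later ones, and for these 3 time points the time and the sequencer cannot be told apart. The C/EBPα library of 0 hpi also had 36-base reads, so its contrast with these 3 is mixed with read length. PU.1 had reads of 36 bases and C/EBPβ of 40. Reads were moved 75 bp inward, and every value called normalised reads below is scaled to 10000000 reads per library. Cybb lies on the X chromosome, which held 0.338 to 0.407 times the reads per kb of the autosomes, and 71.9% of the positions in its locus can be read uniquely with 36 bases against 94.9% to 97.6% in the other 4 loci, so levels at Cybb are not compared with those at the other genes.

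Cybb (ENSMUSG00000015340.4) spans positions 9012378 to 9064897 of chromosome X on the minus strand, with the start of its coding transcripts at 9046450. Cyba (ENSMUSG00000006519.9) spans 124948672 to 124956840 of chromosome 8 and Ncf1 (ENSMUSG00000015950.6) 134695923 to 134705495 of chromosome 5, both on the minus strand. Ncf4 (ENSMUSG00000071715.5, plus strand, 78075231 to 78093010) and Rac2 (ENSMUSG00000033220.6, minus strand, 78389599 to 78403213) both lie on chromosome 15, and their loci do not overlap. The loci were 92.5, 48.2, 49.6, 57.8 and 53.6 kb long in this order, against a median of 55.4 kb over all genes. Sites are named by the distance of their centre from the gene start, with plus for the direction of transcription. The Cyba locus also holds the starts of Il17c and Mvd, and the Rac2 locus those of Sstr3 and Gm6723, so a site there may belong to a neighbour.

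The sequences of 8 sites are shown because the time courses described below turn on them. Taken were the sites with the most C/EBPα or PU.1 reads in any library around the joined centre in each locus. Windows that hold an untranslated region were left out. The Ncf4 site with the most C/EBPβ, which holds a C/EBP word, was added. Ncf4 +13.6 kb leads for C/EBPα by its highest value, 112 normalised reads against 73.7 at Ncf4 +13.1 kb. At most other time points Ncf4 +13.1 kb had more C/EBPα, with 46.5 against 39.0 at the last. Each sequence is the 201 bp around the centre in build mm9, written 5′ to 3′ on the strand of the gene. Capitals mark the 8-letter C/EBP word TTGCNNAA and the PU.1 words GAGGAA and GAGGAAGT, on either strand.
Cybb +6.48 kb, most C/EBPα and C/EBPβ around the joined centre, chrX:9039873-9040073, minus strand: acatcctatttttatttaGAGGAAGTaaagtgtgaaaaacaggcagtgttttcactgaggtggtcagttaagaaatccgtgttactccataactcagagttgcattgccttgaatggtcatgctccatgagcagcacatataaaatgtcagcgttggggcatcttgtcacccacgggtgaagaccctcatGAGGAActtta
Cybb +2.13 kb, most PU.1 around the joined centre, chrX:9044220-9044420, minus strand: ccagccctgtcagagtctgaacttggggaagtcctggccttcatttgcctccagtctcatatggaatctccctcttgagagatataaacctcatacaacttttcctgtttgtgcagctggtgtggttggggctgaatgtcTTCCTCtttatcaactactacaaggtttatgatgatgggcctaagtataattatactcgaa
Cyba -5.24 kb, most C/EBPα, chr8:124961978-124962178, minus strand: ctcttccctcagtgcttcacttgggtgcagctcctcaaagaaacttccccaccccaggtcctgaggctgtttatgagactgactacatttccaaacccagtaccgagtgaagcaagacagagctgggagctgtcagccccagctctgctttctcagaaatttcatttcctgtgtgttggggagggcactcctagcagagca
Cyba +2.51 kb, most PU.1, chr8:124954227-124954427, minus strand: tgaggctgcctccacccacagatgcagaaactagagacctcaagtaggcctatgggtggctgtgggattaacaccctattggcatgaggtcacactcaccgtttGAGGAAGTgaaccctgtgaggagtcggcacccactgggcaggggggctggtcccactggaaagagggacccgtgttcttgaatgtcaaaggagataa
Ncf1 -3.13 kb, most C/EBPα and C/EBPβ, chr5:134708530-134708730, minus strand: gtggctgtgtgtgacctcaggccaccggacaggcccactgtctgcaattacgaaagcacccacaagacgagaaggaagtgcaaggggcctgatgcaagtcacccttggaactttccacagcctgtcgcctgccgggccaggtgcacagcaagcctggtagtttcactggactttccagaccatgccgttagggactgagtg
Ncf4 +13.1 kb, most C/EBPβ, chr15:78088256-78088456, plus strand: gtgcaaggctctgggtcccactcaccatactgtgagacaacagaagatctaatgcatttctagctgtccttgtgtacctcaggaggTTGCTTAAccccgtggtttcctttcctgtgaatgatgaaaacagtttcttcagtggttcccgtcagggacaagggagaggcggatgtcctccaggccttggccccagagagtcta
Ncf4 +13.6 kb, most C/EBPα, chr15:78088717-78088917, plus strand: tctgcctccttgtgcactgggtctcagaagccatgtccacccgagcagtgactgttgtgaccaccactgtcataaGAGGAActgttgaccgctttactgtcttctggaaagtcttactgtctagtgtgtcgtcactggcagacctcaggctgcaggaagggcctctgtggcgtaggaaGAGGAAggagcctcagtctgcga
Rac2 -16.3 kb, most PU.1, chr15:78419437-78419637, minus strand: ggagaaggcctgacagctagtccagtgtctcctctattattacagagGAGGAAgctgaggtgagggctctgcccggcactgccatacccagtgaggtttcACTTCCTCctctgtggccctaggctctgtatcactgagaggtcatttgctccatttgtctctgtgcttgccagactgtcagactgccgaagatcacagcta

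The sites with the highest C/EBPα value of each locus in any library did not carry the full C/EBP word. TTGCNNAA was absent from the windows at Cybb +6.48 kb, Cyba -5.24 kb, Ncf1 -3.13 kb, Ncf4 +13.6 kb and Rac2 -0.043 kb, the strongest C/EBPα site of each locus. It occurred at 5 of the 61 bound sites (8.20%), of which Ncf4 +13.1 kb holds it 10 bp from the centre and an intronic site at Cybb +19.2 kb holds 3 copies. In windows centred on the called region itself, 14.3% of the 14 C/EBPα regions of the 5 loci at 48 hpi held the word, against 36.3% of all 8818 C/EBPα regions of that library, and of the 14 C/EBPβ regions 21.4% did, against 43.5% of 14783. Among all gene starts 5.49% held it. These shares are 2 and 3 regions, and a missing word says only that these letters are not in the window.

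PU.1 words were common in the loci. GAGGAAGT, which contains GAGGAA, occurred at 13 sites (21.3%). In windows centred on the called region it occurred at 32.5% of the 40 PU.1 regions of the loci at 48 hpi, against 25.9% of all 49779 PU.1 regions of that library and 2.24% of gene starts. The shorter GAGGAA occurred at 65.0% of those 40, against 56.6% of the regions and 19.8% of the starts. The window at Cyba +2.51 kb, with steady PU.1, holds GAGGAAGT, and the window at Ncf4 +13.6 kb, where PU.1 rose most, holds 2 copies of GAGGAA and no GAGGAAGT. A site at Ncf1 +11.2 kb, in an intron of Gtf2ird2, holds 9 copies of GAGGAA. Of 3 further words, the AP-1 word TGAGTCA occurred at 17.5% of the 40 regions against 10.5% of all PU.1 regions. The RUNX word TGTGGTT occurred at 0 of the 40, against 6.33%, and the EBF1 word TCCCNNGGG at 1 (2.50%), against 3.70%.

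Across the 5 loci C/EBPα and C/EBPβ regions were first called after induction, at genes that already had a PU.1 region. Before induction 63.8% of all gene loci had one. Of the 14 sites with C/EBPα at the last time point 4 had a PU.1 region before induction. Reads at the strongest C/EBPα site of Rac2 had not risen by the last time point. There C/EBPα went from 16.9 to 17.6 normalised reads and C/EBPβ from 23.4 to 15.8. A site is a place where a region of any factor was called in any library, with region centres within 250 bp of each other joined. The loci held 61 sites, 17 at Cybb, 8 at Cyba, 9 at Ncf1, 13 at Ncf4 and 14 at Rac2, or 1.84, 1.66, 1.82, 2.25 and 2.61 per 10 kb. C/EBPα was called at 30 sites, C/EBPβ at 15 and PU.1 at 52, and 10 sites held all 3 factors in some library. With the tag threshold raised 1.5 times the 10 became 6, and with libraries thinned to the smallest of their factor 5. At Cyba +2.51 kb and Cybb +8.80 kb, among the 10, most joined C/EBP regions lay 220 to 314 bp from the PU.1 centre. The 10 are 16.4% of the sites, against 6.52% of the 120576 sites joined in the same way over the genome. PU.1 alone held 30 sites (49.2%, against 59.4%), and 9 sites had C/EBP and no PU.1 (14.8%, against 24.4%).

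No C/EBPα region was called in the 5 loci at 0 hpi, when 10.7% of all gene loci held 1 or more. That count of 0 depends on the calling: with one 200-bp window 2 sites, and with reads moved 75 bp for calling 1 site, had C/EBPα or C/EBPβ at 0 hpi. At 10 min 4 of the 5 genes had a region and Cyba had none (30.1% of all loci). All 5 genes had C/EBPα from 30 min to 48 hpi, but 4 had it at 48 hpi with the tag threshold raised 1.5 times. The shares of all loci with C/EBPα in these libraries were 38.9% at 30 min, 50.8% at 60 min, 47.3% at 3 hpi, 42.6% at 12 hpi, 33.9% at 24 hpi and 30.7% at 48 hpi. Sites with C/EBPα numbered 0, 6, 12, 21, 21, 18, 16 and 14 in this order, in libraries of unequal depth. With libraries thinned to the smallest, 8 sites had C/EBPα at 60 min and 10 at 48 hpi, so the higher count at 60 min was not kept at equal depth. Ncf4 held the most at the end, with 5 C/EBPα regions at 48 hpi, and 0.988% of all genes had as many or more. For Rac2 with 3 regions that share was 5.22%, and for Cybb, Cyba and Ncf1 with 2 each it was 12.2%, with no allowance for locus length.

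C/EBPβ was called at all 5 genes at 48 hpi only, and had no library between 0 and 3 hpi. No gene had a region at 0 hpi (3.08% of all loci), Cybb, Cyba and Ncf1 had one at 3 hpi (20.6%), Ncf1 alone at 12 hpi (9.25%), all but Rac2 at 24 hpi (21.8%) and all 5 at 48 hpi (39.7%). The sites with C/EBPβ numbered 0, 6, 1, 7 and 14. These counts move with depth, and the library of 12 hpi is the shallowest of the series. With the C/EBPβ libraries thinned to its depth 5 sites were called at 48 hpi, and with the tag threshold raised 1.5 times 8. Over the genome thinning took the regions of 3 hpi from 6851 to 2496, against 2220 at 12 hpi. Cybb, the longest of the 5 loci, had 4 C/EBPβ regions at 48 hpi, and 5.09% of all genes had as many or more, with no allowance for locus length. The share was 9.77% for Cyba and Ncf4 with 3 each and 19.7% for Ncf1 and Rac2 with 2 each.

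PU.1 was at all 5 genes in all 5 libraries, where 63.8% of all loci held a region at 0 hpi, 67.6% at 3 hpi, 78.8% at 12 hpi, 73.2% at 24 hpi and 70.2% at 48 hpi. The sites with PU.1 numbered 20, 28, 45, 35 and 40, in libraries of unequal depth, of which those of 0 and 3 hpi were the shallowest. With the PU.1 libraries thinned to the smallest, 19 sites had PU.1 at 0 hpi and 34 at 48 hpi. Over the genome thinning took the PU.1 regions of 12 hpi from 71986 to 47492. Rac2 started with the most, 8 regions at 0 hpi, and 3.10% of all genes had as many or more. That share was 10.7% for Cybb with 5 regions, 27.5% for Ncf1 and Ncf4 with 3 each and 63.8% for Cyba with 1. At 48 hpi it was 3.00% for Cybb with 11 regions, 5.29% for Rac2 with 9, 7.44% for Ncf4 with 8, 10.6% for Ncf1 with 7 and 22.4% for Cyba with 5. These shares make no allowance for locus length, and the Cybb locus is the longest of the 5. Of the 20 sites with PU.1 at 0 hpi 17 had it at 48 hpi (85.0%, against 73.2% of all PU.1 regions).

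**Figure D1:**
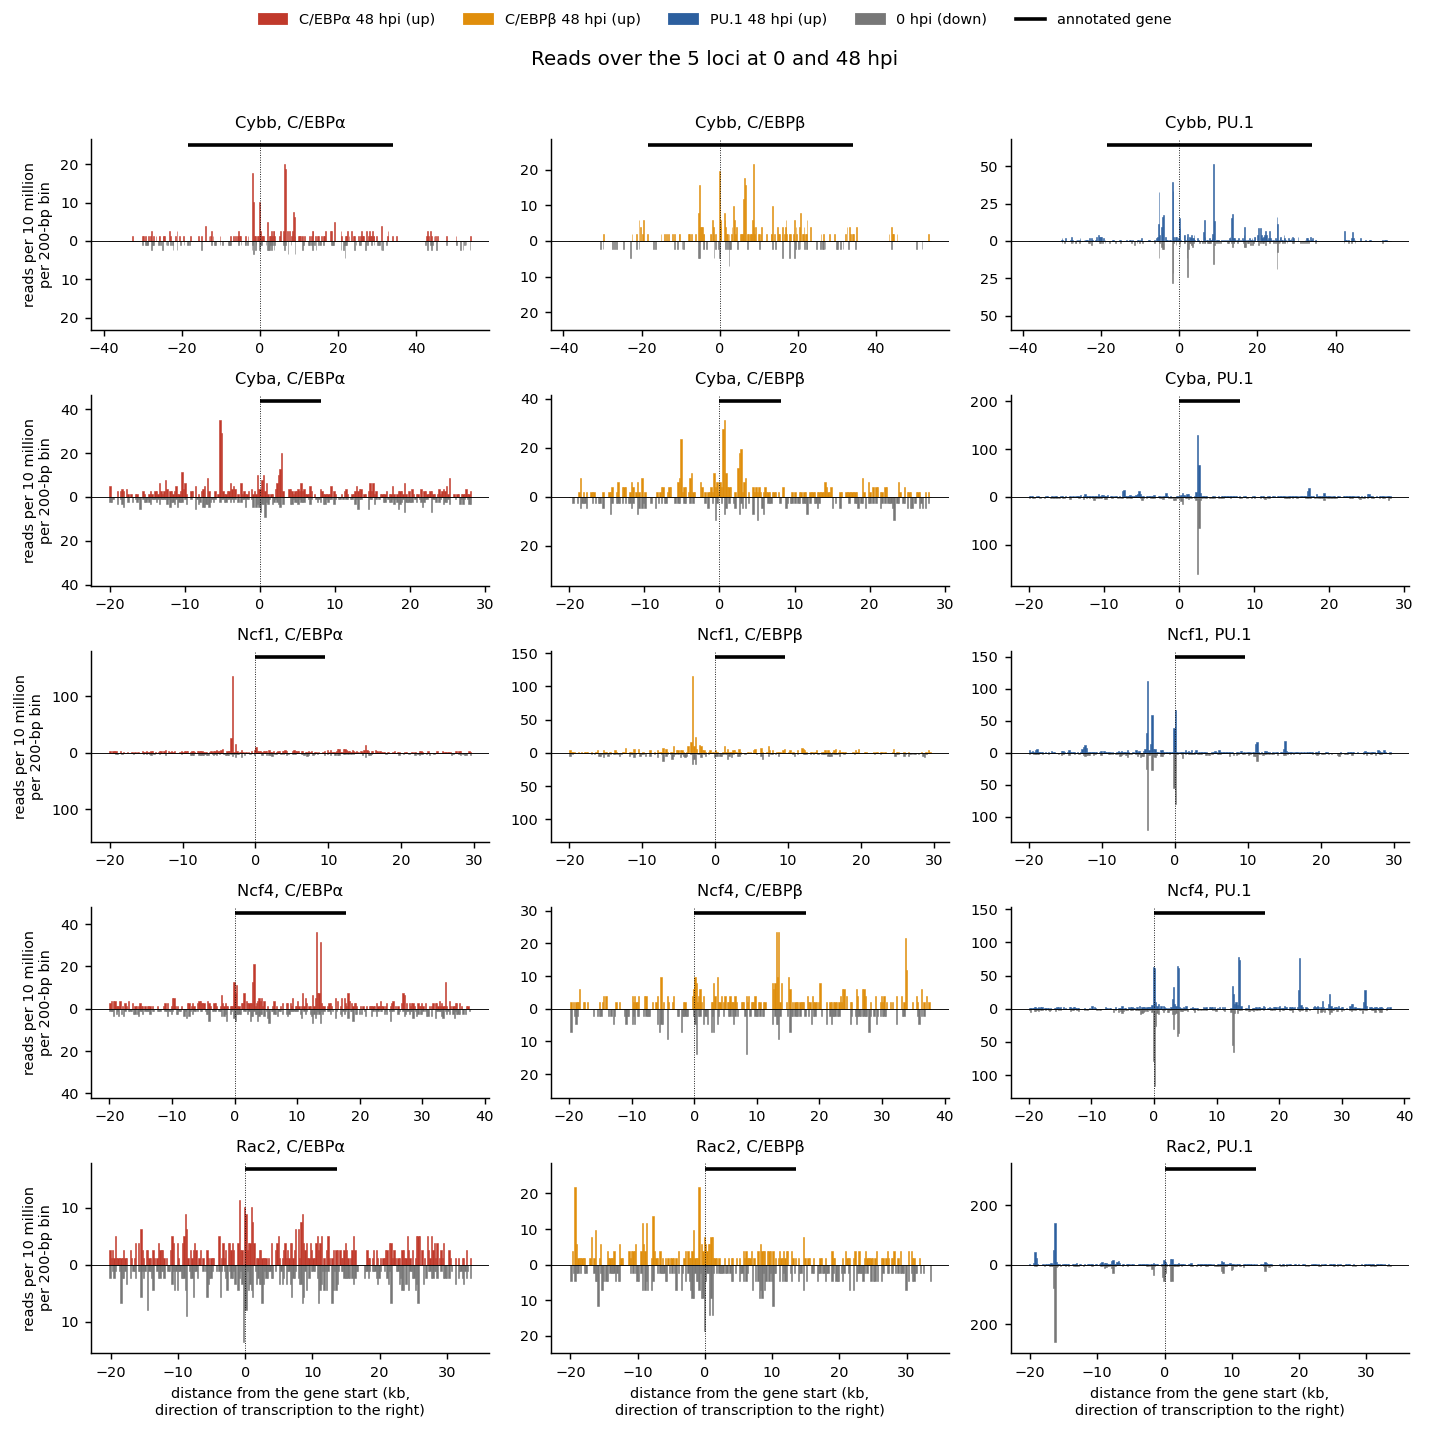
Normalised reads in 200-bp bins (y axis) against the distance from the gene start in kb (x axis) for the 5 loci and 3 factors, with 48 hpi drawn upward in colour and 0 hpi downward in grey, and the annotated gene as a black bar. The highest C/EBPα and C/EBPβ bins are taller at 48 than at 0 hpi at Cybb, Cyba, Ncf1 and Ncf4. At Rac2 the highest bin is 13.5 at 0 and 11.3 at 48 hpi for C/EBPα, and 18.7 and 21.7 for C/EBPβ. PU.1 has tall bins at both times. Among them are a steady one at Cyba +2.51 kb and one at Rac2 -16.3 kb that is lower at 48 hpi.

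**Figure D2:**
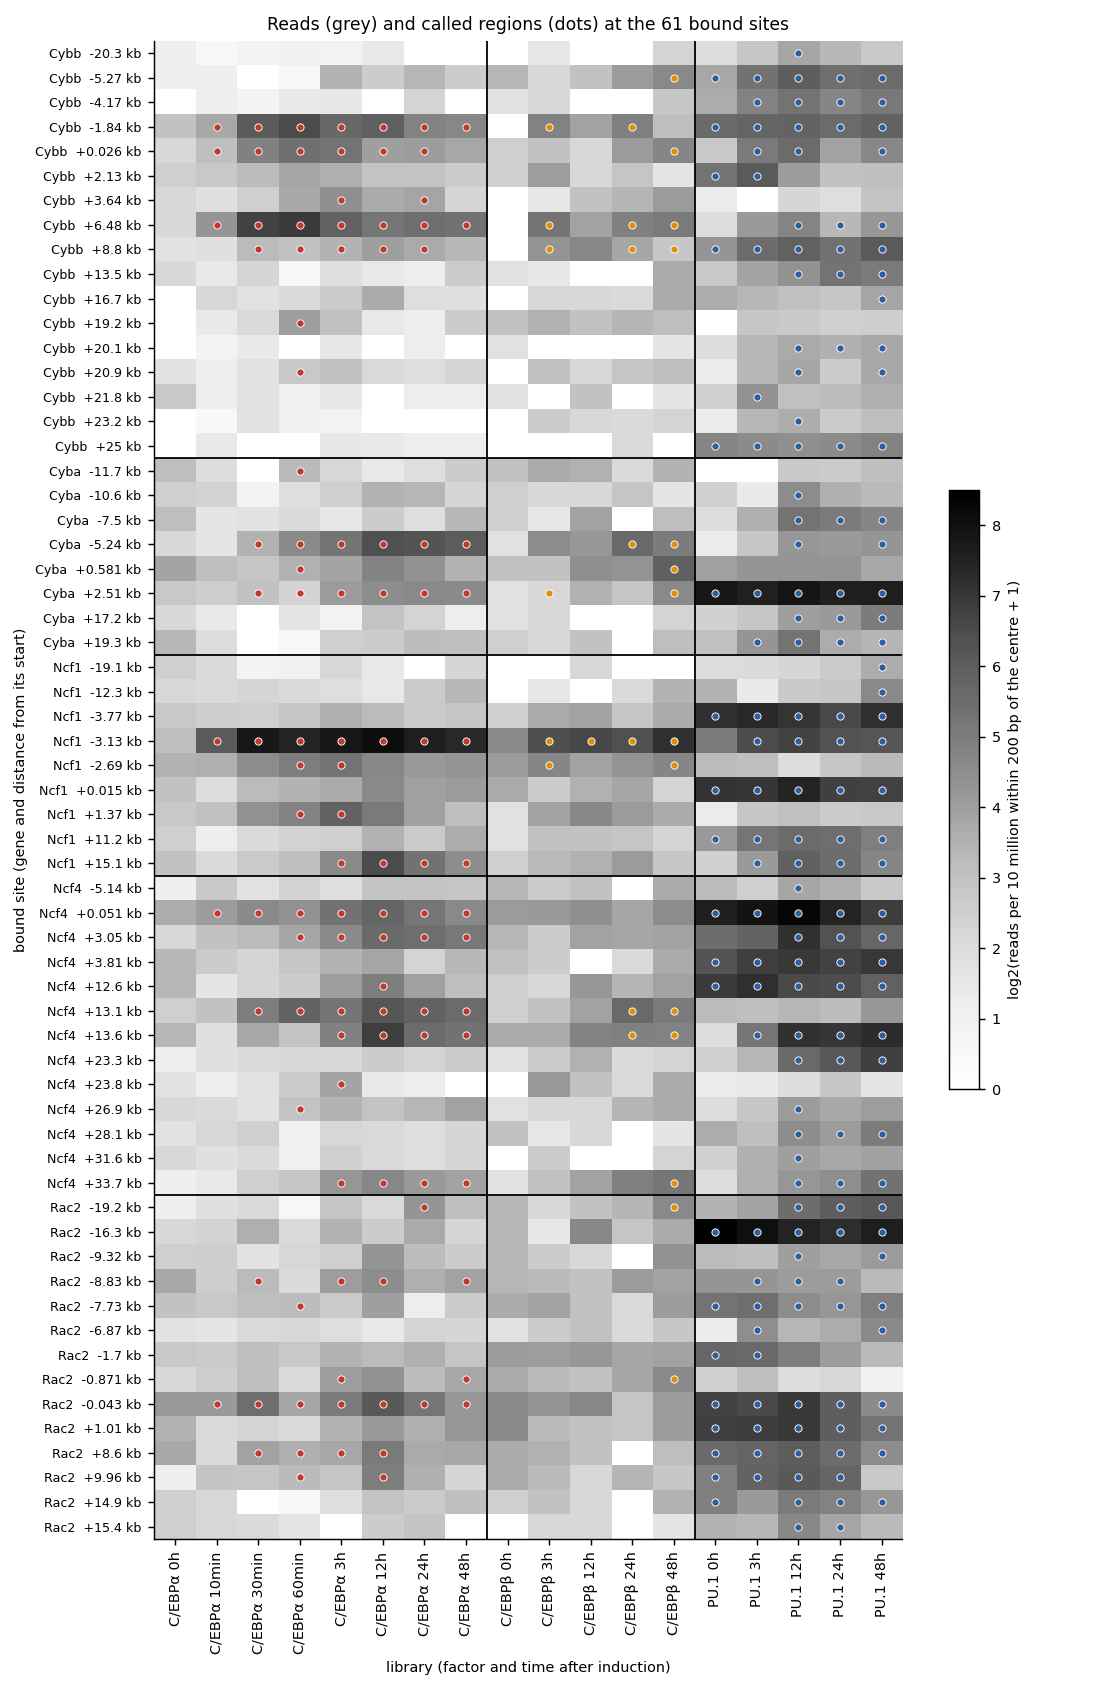
The 61 bound sites (y axis, gene and distance from its start) in the 18 libraries (x axis), with shading for log2 of normalised reads plus 1 within 200 bp of the centre and a dot where a region was called. PU.1 has dots at 52 sites, C/EBPα at 30 and C/EBPβ at 15, and the columns of C/EBPα and C/EBPβ at 0 hpi hold no dot.

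At Cybb, the catalytic subunit, C/EBPα at the strongest site counted most at 30 and 60 min. Those libraries came from another sequencer than the ones from 3 hpi on, so time and sequencer cannot be told apart in this course. The strongest C/EBPα site of the locus lay in an intron at +6.48 kb (centre 9039973), where C/EBPα counted 3.38 normalised reads at 0 hpi, 18.1 at 10 min, 105 at 30 min, 119.8 at 60 min, 56.6 at 3 hpi, 36.9 at 12 hpi, 43.5 at 24 hpi and 39.0 at 48 hpi. Every library after 0 hpi had a called region, and the 60-min value (interval 105 to 136) lay above all those from 3 hpi on. From 0 to 48 hpi the site rose by 3.53 on the log2 scale (1.85 to 5.88).

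C/EBPβ and PU.1 were also called at this Cybb site. C/EBPβ had 0 reads at 0 hpi, then 37.7, 13.8, 28.8 and 33.5 at 3, 12, 24 and 48 hpi, and regions were called at all but 12 hpi. The counting interval of the log2 ratio of 48 to 0 hpi starts at 1.80. PU.1 counted 2.84, 16.7, 26.1, 8.81 and 17.2 and was called from 12 hpi on, while C/EBPα was called from 10 min on. PU.1 was higher at 48 than at 0 hpi by 2.60 on the log2 scale (0.54 to 5.75).

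PU.1 was lost from one Cybb intron site and gained at others. By the highest value in any library around a joined centre, +2.13 kb (centre 9044320) and +8.80 kb were level at 66.9 normalised reads. The +2.13 kb site had 38.3, 66.9, 15.9, 7.05 and 7.64 and was called at 0 and 3 hpi only. The log2 ratio of 48 to 0 hpi was -2.32 (-3.67 to -1.15), and no C/EBP region was called there at any time. Counted around PU.1's own called regions, 130 to 170 bp from the joined centre, Cybb -1.84 kb had more, with 51.1, 77.6, 77.5, 64.3 and 72.6. At +8.80 kb PU.1 went the other way, with 18.4, 45.6, 56.9, 40.5 and 66.9. C/EBPα and C/EBPβ regions joined to the +8.80 kb site lay 220 to 314 bp from its centre. Of 12 Cybb sites with PU.1 at 0 or 48 hpi, 8 rose, 1 fell and 3 stayed within 2-fold.

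At the start of Cybb itself all 3 factors appeared after induction. The site at +0.026 kb, in an untranslated region, counted C/EBPα at 3.38, 7.63, 28.5, 42.5, 38.6, 15.1, 15.8 and 12.6 normalised reads, with regions from 10 min to 24 hpi. PU.1 counted 5.67, 33.5, 46.7, 14.1 and 24.8, called at 3, 12 and 48 hpi. C/EBPβ counted 4.67, 6.85, 3.45, 16.01 and 25.6 and was called at 48 hpi only. Between 0 and 48 hpi PU.1 rose by 2.13 on the log2 scale (0.60 to 4.11) and C/EBPβ by 2.46 (0.31 to 5.65), while the interval for C/EBPα, from -0.06 to 4.39 around 1.89, includes no change. A site at -1.84 kb, chosen after its values were seen, held PU.1 in every library, with 46.8, 51.7, 55.1, 45.8 and 56.4. C/EBPα was added there, from 6.77 at 0 hpi to 90.6 at 60 min and 25.1 at 48 hpi.

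At Cyba, the membrane partner of Cybb, binding was away from the start. Within 200 bp of the start itself no factor was called in any library, and PU.1 counted between 4.25 and 14.0 normalised reads there. The strongest C/EBPα site lay at -5.24 kb (centre 124962078) in an intron of Mvd, the mevalonate decarboxylase gene. C/EBPα counted 3.38, 2.01, 10.00, 23.0, 37.7, 82.1, 76.5 and 64.1, was called from 30 min on and was highest at 12 hpi (60.7 to 109). It rose by 4.24 on the log2 scale (2.62 to 6.57), with a later maximum than at Cybb +6.48 kb, where the maximum was in a library of the other sequencer.

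C/EBPβ at Cyba -5.24 kb counted 2.34, 22.2, 17.2, 48.0 and 31.5 and was called at 24 and 48 hpi. PU.1 counted 1.42, 6.08, 17.7, 16.7 and 18.2 and was called at 12 and 48 hpi, after C/EBPα. The highest C/EBPβ value of the locus was in an intron at +0.581 kb, with 7.01, 6.85, 20.7, 19.2 and 59.1. This site rose by 3.08 on the log2 scale (1.39 to 5.43), and no PU.1 region was called there, with PU.1 between 12.4 and 18.7. C/EBPα was called there at 60 min only and counted 13.5 at 0 and 10.1 at 48 hpi.

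PU.1 at Cyba was held by a single strong intronic site at +2.51 kb (centre 124954327). It counted 224, 189, 238, 193 and 198 normalised reads, and the log2 ratio of 48 to 0 hpi was -0.18 (-0.49 to 0.13). This was the only PU.1 region of the Cyba locus at 0 hpi. C/EBPα went from 5.64 to 22.6 within 200 bp of its centre, but the C/EBPα and C/EBPβ regions joined to the site lay 255 to 302 bp away, except for a second C/EBPα region at 24 hpi, 35 bp from the centre. Of the 5 Cyba sites with PU.1 at 0 or 48 hpi, 3 rose and none fell.

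Ncf1, the organiser subunit, had the strongest C/EBPα site of the 4 autosomal loci. At -3.13 kb (centre 134708630), between genes, C/EBPα counted 7.89 normalised reads at 0 hpi, 67.0 at 10 min, 224 at 30 min, 172 at 60 min, 226 at 3 hpi, 269.7 at 12 hpi, 196 at 24 hpi and 163 at 48 hpi. The 10-min value was already above 0 hpi, whose interval ends at 16.3, and the site rose by 4.37 on the log2 scale (3.29 to 5.71) to 48 hpi. C/EBPβ counted 23.4, 85.6, 96.5, 83.3 and 139.9 there and rose by 2.58 (1.62 to 3.70). This was the only site of the 5 loci with a C/EBPβ region at 12 hpi. PU.1 counted 32.6, 89.7, 105, 78.4 and 74.5, was called from 3 hpi on and rose by 1.19 (0.51 to 1.93).

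PU.1 was present beside this Ncf1 site before induction. At -3.77 kb it counted 145, 158, 132, 96.0 and 145 normalised reads, and at the start (+0.015 kb, in an untranslated region) 136, 129, 175, 109 and 108. The log2 ratio of 48 to 0 hpi at the start was -0.33 (-0.74 to 0.07), and no C/EBP region was called at either site. A site at +15.1 kb in an intron of Gtf2ird2 gained both factors: C/EBPα went from 6.77 at 0 hpi to 88.8 at 12 hpi and 21.4 at 48 hpi, and PU.1 from 4.25 to 57.9 and 25.8. Both were first called there at 3 hpi. Of the 7 Ncf1 sites with PU.1 at 0 or 48 hpi, 4 rose and none fell.

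At Ncf4, which encodes the p40phox subunit, PU.1 was called at 3 sites in pre-B cells, among them the start. The others were +3.81 kb (78.0 normalised reads at 0 hpi) and +12.6 kb (121 at 0 and 57.3 at 48 hpi). Further sites appeared after induction in the 3′ part of the gene, where +12.6 kb already had PU.1. The start site at +0.051 kb, in an untranslated region, counted PU.1 at 193, 239, 308, 176 and 115 normalised reads, so the 48-hpi value (95.1 to 137) was the lowest of the 5. The log2 ratio was -0.75 (-1.12 to -0.39), a decrease of less than 2-fold. C/EBPα counted 11.3, 15.7, 23.1, 19.5, 39.5, 51.9, 36.9 and 23.9 and was called from 10 min on. C/EBPβ was not called there, with values between 12.8 and 21.7.

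The largest PU.1 rise of the 5 loci was at Ncf4 +13.6 kb (centre 78088817), in an intron. PU.1 counted 2.84 at 0 hpi and 36.5, 138, 128 and 152 at 3, 12, 24 and 48 hpi, a rise of 5.74 on the log2 scale (3.87 to 8.80). C/EBPα counted 9.02, 2.41, 12.3, 6.65, 27.9, 112, 46.2 and 39.0, so it was not called before 3 hpi and was highest at 12 hpi. C/EBPβ counted 11.7, 12.0, 27.6, 28.8 and 27.6 and was called at 24 and 48 hpi.

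A neighbouring Ncf4 site had C/EBP regions and no PU.1 region. At +13.1 kb (centre 78088356) C/EBPα counted 4.51, 6.82, 30.8, 54.8, 37.7, 73.7, 55.4 and 46.5 and was called from 30 min on, earlier than at +13.6 kb. C/EBPβ counted 4.67, 6.85, 13.8, 48.0 and 33.5. PU.1 was not called and counted 8.51, 7.60, 9.33, 7.93 and 17.2, a log2 ratio of 1.02 (-0.38 to 2.64). At +23.3 kb the opposite was seen: PU.1 went from 4.25 to 109.9, a rise of 4.69 (3.11 to 6.99), and no C/EBP region was called. At +33.7 kb, nearest to the start of the cytokine receptor gene Csf2rb2, C/EBPα rose by 3.62 (0.83 to 9.04), C/EBPβ by 3.93 (1.26 to 9.31) and PU.1 by 3.79 (1.84 to 6.88).

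At Rac2, the GTPase of the complex, PU.1 fell at more sites than it rose. The strongest PU.1 site of the 4 autosomal loci was at Rac2 -16.3 kb (centre 78419537), between Rac2 and Cyth4, the gene with the nearest start. It counted 346, 266, 173, 149.8 and 194 normalised reads, with a log2 ratio of -0.84 (-1.11 to -0.56). Just upstream of the start, at -0.043 kb, PU.1 counted 104, 92.8, 122, 61.7 and 22.9, a log2 ratio of -2.17 (-2.90 to -1.49). Among sites called at 0 or 48 hpi, PU.1 fell by 2-fold or more at 7 in the 5 loci, and 5 of them were at Rac2. The 5 were -1.70 kb (51.1 to 8.60), -0.043 kb, +1.01 kb (109 to 37.3), +8.60 kb (46.8 to 22.0) and +9.96 kb (29.8 to 5.73), each from 0 to 48 hpi. A further site, -8.83 kb, went from 18.4 to 8.60 but was called at 3 to 24 hpi only. PU.1 rose at 2 Rac2 sites, -19.2 kb with 9.93 to 70.7 and -6.87 kb with 1.42 to 23.9.

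C/EBPα just upstream of the Rac2 start ended near the level from which it began. This site, at -0.043 kb, had the most C/EBPα reads of the locus, with 16.9, 16.5, 43.1, 12.8, 33.3, 68.7, 36.9 and 17.6, and a log2 ratio of 48 to 0 hpi of 0.06 (-1.10 to 1.21). At -0.871 kb C/EBPα went from 3.38 to 12.6, a log2 ratio of 1.89 (-0.06 to 4.39). Regions were called at the -0.043 kb site from 10 min to 48 hpi, and in the libraries from 10 min to 12 hpi a further region lay 240 to 362 bp from the centre. C/EBPβ had no region at the Rac2 sites where it counted most (24.1 at 12 hpi), and its called sites at Rac2 were -19.2 kb and -0.871 kb at 48 hpi, with 23.7 normalised reads each.

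**Figure D3:**
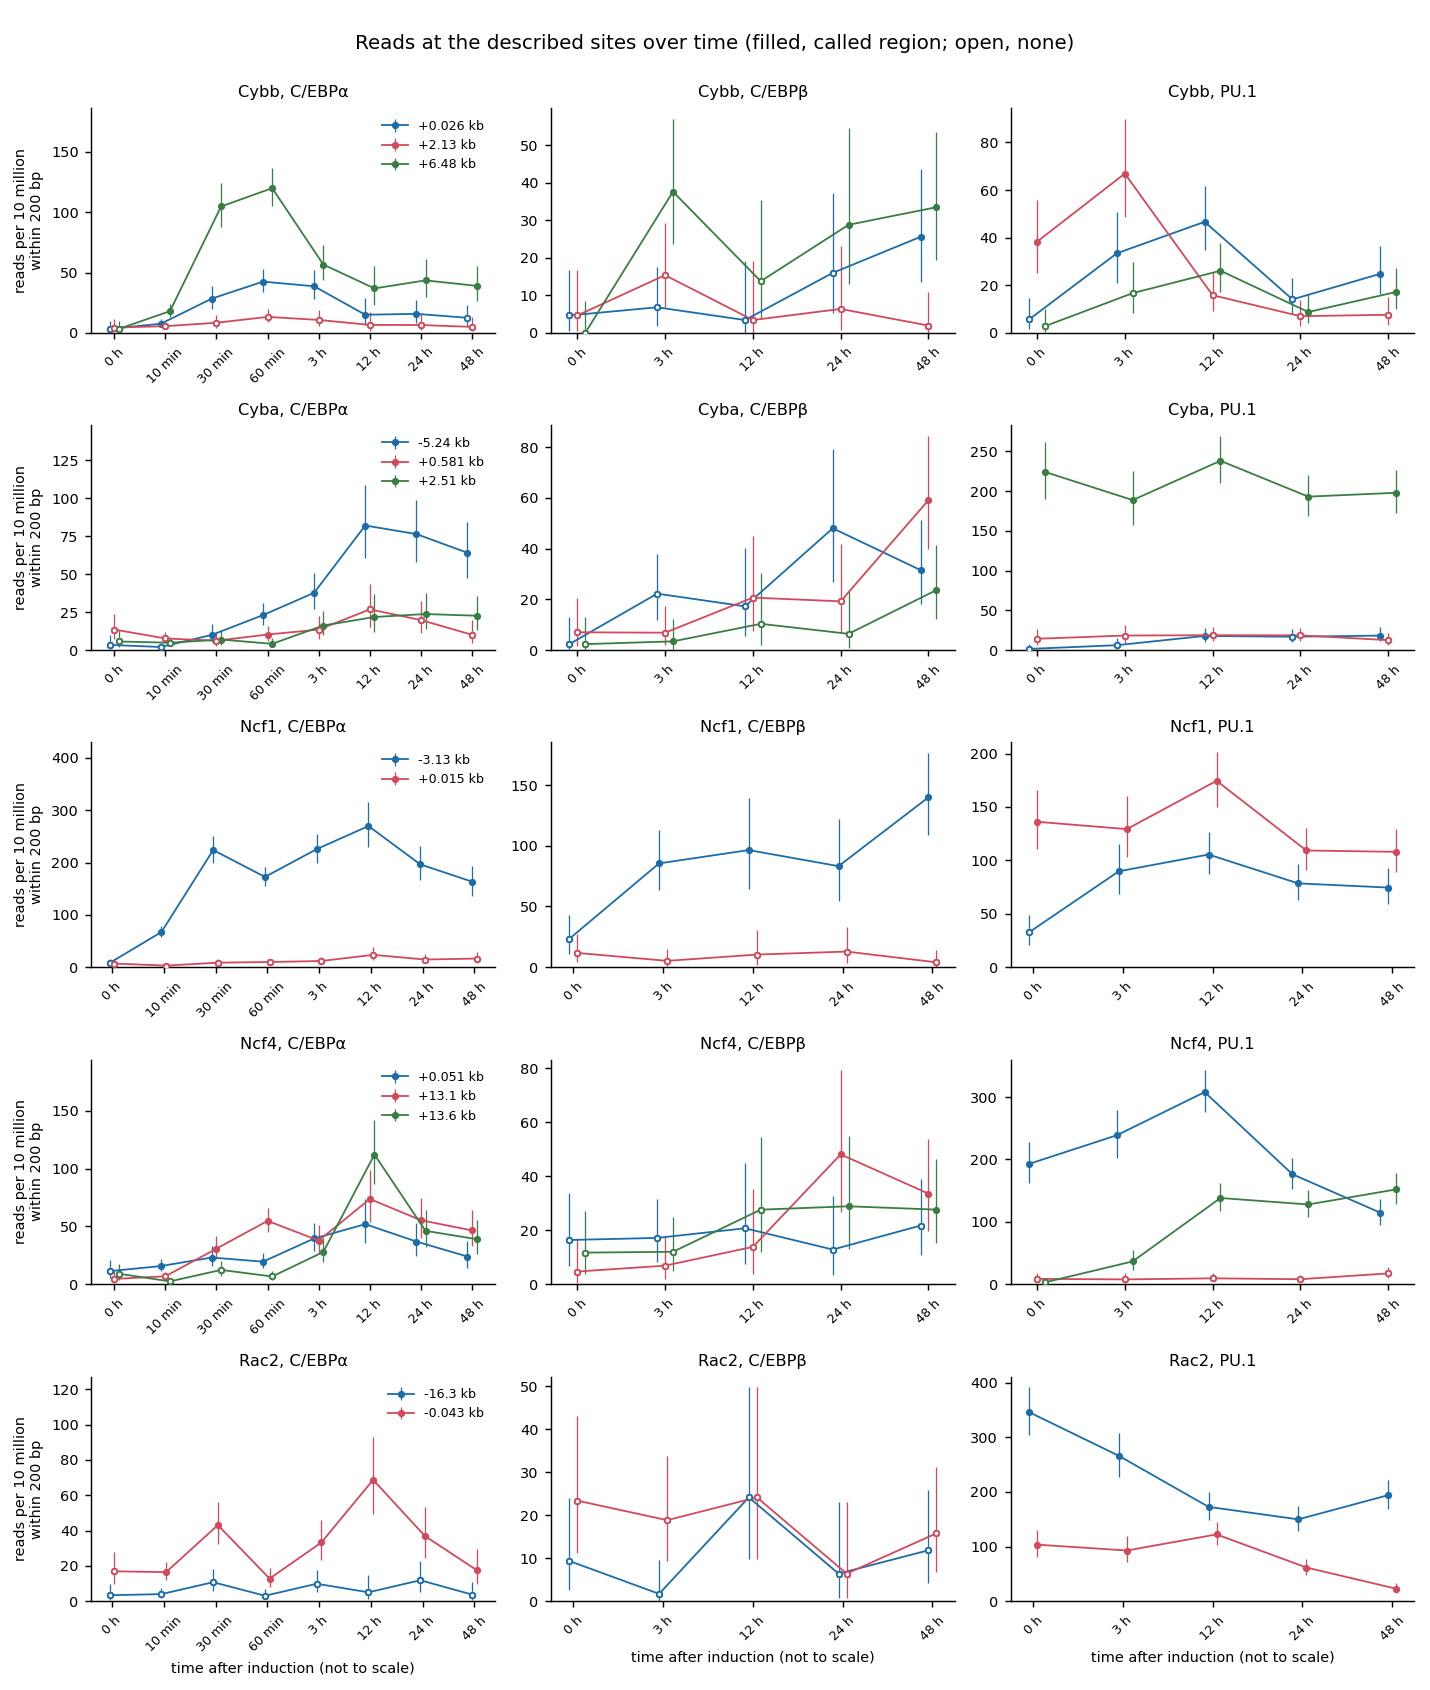
Normalised reads within 200 bp of the centre (y axis) at each time after induction (x axis, not to scale) for the described sites of each gene and factor, with 95% counting intervals as bars, filled points where a region was called and open points where none was. C/EBPα peaks at 60 min at Cybb +6.48 kb (119.8) and at 12 hpi at Cyba -5.24 kb (82.1), Ncf1 -3.13 kb (269.7) and Ncf4 +13.6 kb (112).

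Between 0 and 48 hpi PU.1 changed in both directions at these sites. For C/EBPα and C/EBPβ no region was called at 0 hpi, so the sites compared are those called at 48 hpi, the choice itself favours a rise, and the counts are a description. Of the 14 C/EBPα sites 12 rose (85.7%) and 0 fell, with a median log2 ratio of 2.06. With the tag threshold raised 1.5 times 8 sites, not 14, had C/EBPα at 48 hpi. Over all 9750 C/EBPα regions called at 0 or 48 hpi 72.6% rose and 5.89% fell, with a median of 1.92. Unlike the 14, these include regions called at 0 hpi only, so the 2 sets are not chosen alike. For each factor the genome regions were counted around the factor's own region centres, and the sites of the loci around joined centres of all factors. The exceptions were Rac2 -8.83 kb with 12.4 and 13.8 and Rac2 -0.043 kb with 16.9 and 17.6. Of the 14 C/EBPβ sites 13 rose and 0 fell, with a median of 2.71, against 92% and 0.555% of 14781 regions with a median of 2.81. Over every site with a region of the factor in any library, 18 of 30 C/EBPα sites rose, 1 (Ncf4 +23.8 kb) had 2 reads at 0 hpi and 0 at 48 hpi, and 14 of 15 C/EBPβ sites rose. No genome share was worked out for sites chosen in this way, so these counts cannot be set against all sites. Where a site had 0 reads at 0 hpi, any reads at 48 hpi counted as a rise. For C/EBPβ these were 3 reads at Cybb +8.80 kb, 4 at Cybb -1.84 kb and 17 at Cybb +6.48 kb. The 3 are those around the joined centre of Cybb +8.80 kb. Its C/EBPβ region of 48 hpi lay 270 bp away and held 16 reads. For C/EBPα they were 4 reads at Cybb +19.2 kb.

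Of the 43 sites with PU.1 at 0 or 48 hpi 21 rose (48.8%) and 7 fell (16.3%), with a median log2 ratio of 0.93 and a range from -2.57 to 5.74. Over all 58800 PU.1 regions 32.9% rose and 17.7% fell, with a median of 0.32. Rises were at Cybb (8), Cyba (3), Ncf1 (4), Ncf4 (4) and Rac2 (2), and falls at Rac2 (5), Cybb +2.13 kb and Ncf4 +12.6 kb (121 to 57.3). The interval of the ratio lay above 0 at 20 sites and below 0 at 9.

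**Figure D4:**
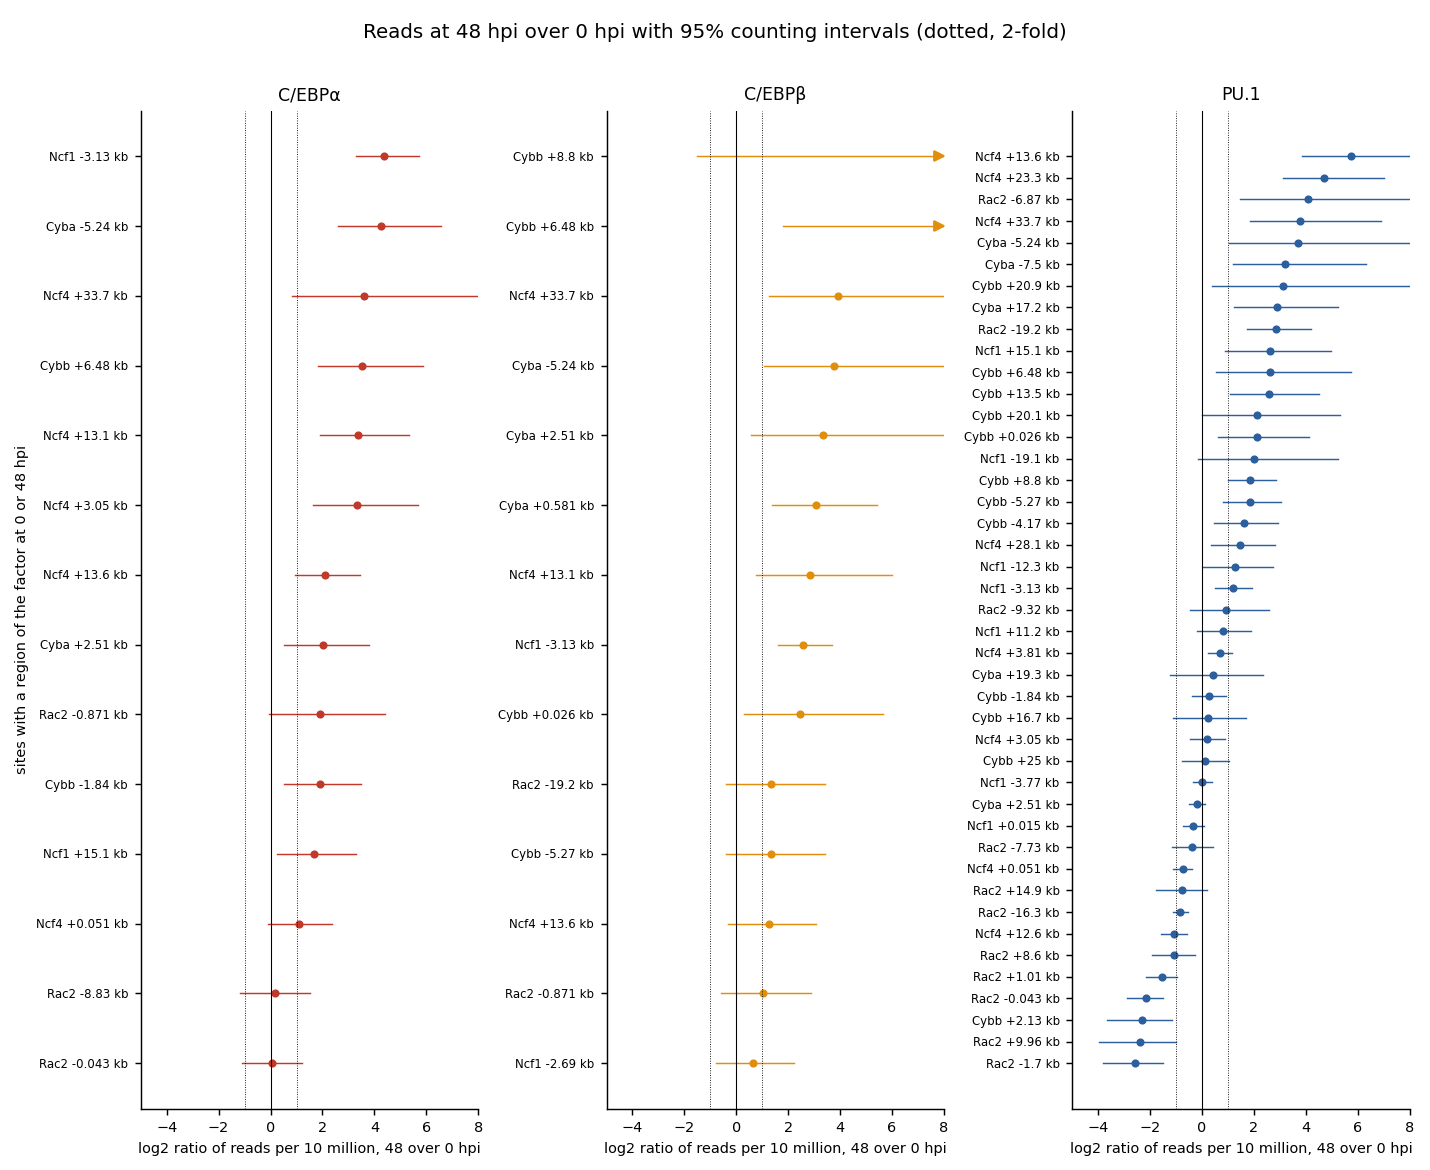
Log2 ratio of normalised reads at 48 over 0 hpi (x axis) at each site with a region of the factor at 0 or 48 hpi (y axis), with 95% counting intervals and dotted lines at 2-fold. C/EBPα and C/EBPβ points lie above 0, and PU.1 points run from -2.57 at Rac2 -1.70 kb to 5.74 at Ncf4 +13.6 kb.

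The factors were not first called in a single order. At the 5 time points that all factors share, C/EBPα and PU.1 were both called at 18 sites. PU.1 was called first at 9 of them (50.0%, against 54.0% of 14936 such sites over the genome), C/EBPα first at 4 (22.2%, against 19.97%) and both at the same time point at 5 (27.8%, against 26.03%). This is an order of calls, not of reads. C/EBPα was called first at Cybb +6.48 kb, Cyba -5.24 kb, Ncf4 +3.05 kb and Ncf4 +33.7 kb. At Ncf4 +3.05 kb, however, PU.1 already counted 43.96 normalised reads at 0 hpi, without a called region, against 50.6 at 48 hpi, when it was called, and C/EBPα counted 3.38 at 0 hpi. At Cybb +6.48 kb PU.1 counted 16.7 at 3 hpi, without a called region, and 8.81 at 24 hpi, when it was called. With regions called at 2-fold over the surrounding 10 kb, C/EBPα was called first at 3 sites. With thinned libraries the 5 sites called at the same time point became 3, and over all alternatives of calling and joining the sites with PU.1 first numbered 6 to 12. Both were first called at the same one of these time points at Cybb +0.026 kb, Ncf1 -3.13 kb, Ncf1 +15.1 kb, Ncf4 +13.6 kb and Rac2 -8.83 kb. At Rac2 -8.83 kb the values at 0 and 3 hpi were 18.4 and 18.3 for PU.1 and 12.4 and 15.3 for C/EBPα, within each other's counting intervals, and at Ncf1 -3.13 kb PU.1 already counted 32.6 at 0 hpi. C/EBPα was already called at 10 min at Cybb +0.026 kb and Ncf1 -3.13 kb and at 30 min at Rac2 -8.83 kb, times with no PU.1 library.

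By 48 hpi C/EBPα and PU.1 were mostly together. Of the 14 sites with C/EBPα at 48 hpi 11 also had PU.1 at 48 hpi (78.6%, against 57.5% of 8818 regions), while 4 had had it at 0 hpi (28.6%, against 32.5%). The 4 were Cybb -1.84 kb, Cyba +2.51 kb, Ncf4 +0.051 kb and Rac2 -0.043 kb. C/EBPβ was at 8 of the 14 (57.1%, against 72.3%). Seen from PU.1, 11 of the 40 sites with PU.1 at 48 hpi had C/EBPα (27.5%, against 10.0%). At 12 hpi 17 of 18 C/EBPα sites had PU.1 (94.4%, against 57.6%), and Ncf4 +13.1 kb was the exception. The genome shares here, and those for sites kept from 1 time point to another, ask for a region within 250 bp. Joined regions of a site in the loci can lie further apart, so the rules differ. At Cyba +2.51 kb the C/EBPα region of 48 hpi lay 297 bp from the centre and that of PU.1 12 bp. At Cybb +8.80 kb the C/EBPα region of 12 hpi lay 314 bp from the centre and that of PU.1 10 bp.

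Most of the earliest C/EBPα sites of these genes were still called at the end. Of the 6 sites called at 10 min 5 had C/EBPα at 48 hpi (83.3%, against 29.3% of 10927 regions): Cybb -1.84 kb, Cybb +6.48 kb, Ncf1 -3.13 kb, Ncf4 +0.051 kb and Rac2 -0.043 kb. Of the 21 sites called at 60 min 9 did (42.9%, against 18.9% of 29140). Rac2 -0.043 kb counted 16.9 normalised reads at 0 hpi, without a call, 16.5 at 10 min and 12.8 at 60 min. The library of 10 min was the deeper one. Thinned to the smallest C/EBPα library, its regions over the genome went from 10927 to 1636.

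The C/EBPα signal was highest at 12 hpi at most sites, and at 60 min at 4 of 7 sites of Cybb. It was highest at 12 hpi at 17 of the 30 C/EBPα sites (56.7%), where 18.6% of 45373 C/EBPα sites over the genome had their highest value. The 17 included 6 of 8 at Ncf4 and 6 of 7 at Rac2. Some sites were called for C/EBPα only in the library where they were highest, so call and peak rest on the same reads. At 60 min these were Cybb +19.2 kb and Cyba -11.7 kb. The later ones were Ncf4 +23.8 kb at 3 hpi, Ncf4 +12.6 kb at 12 hpi and Rac2 -19.2 kb at 24 hpi. Others called in 1 C/EBPα library, such as Cyba +0.581 kb, were highest at another time. The genome sites were chosen by the same rule. At Cybb the highest value was at 60 min at 4 of 7 sites and at 12 hpi at 1. That 1, also among the 17, was Cybb +8.80 kb, whose C/EBPα regions lay 227 to 314 bp from the joined centre. Counted around these regions, C/EBPα had 25.4, 43.5, 44.9, 33.5 and 23.7 from 30 min to 24 hpi, with the highest at 3 hpi. Of all libraries, C/EBPα at 60 min had the most reads per kb on the X chromosome relative to the autosomes (0.407). C/EBPα at 12 hpi had the fewest (0.338), and the part of this was not tested. Over the genome 22.0% peaked at 60 min and 28.1% at 3 hpi. Reads over the whole locus differed between these libraries too. They were 8.92, 7.85, 7.59 and 9.95 normalised reads per kb at 0 hpi, when no region was called, 5.78, 10.7, 6.33 and 6.53 at 60 min and 14.96, 19.1, 14.9 and 13.7 at 12 hpi for Cyba, Ncf1, Ncf4 and Rac2, and 1.87 at 0 hpi, 5.99 at 60 min and 4.51 at 12 hpi for Cybb. The library of 12 hpi was the shallowest of C/EBPα and that of 60 min came from the other sequencer, and the part of these and of the level over the whole locus in the peak times was not tested. PU.1 was highest at 12 hpi at 26 of 52 sites (50.0%, against 41.8%) and at 48 hpi at 17 (32.7%, against 19.0%), and C/EBPβ at 48 hpi at 8 of 15 (53.3%, against 68.5%).

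**Figure D5:**
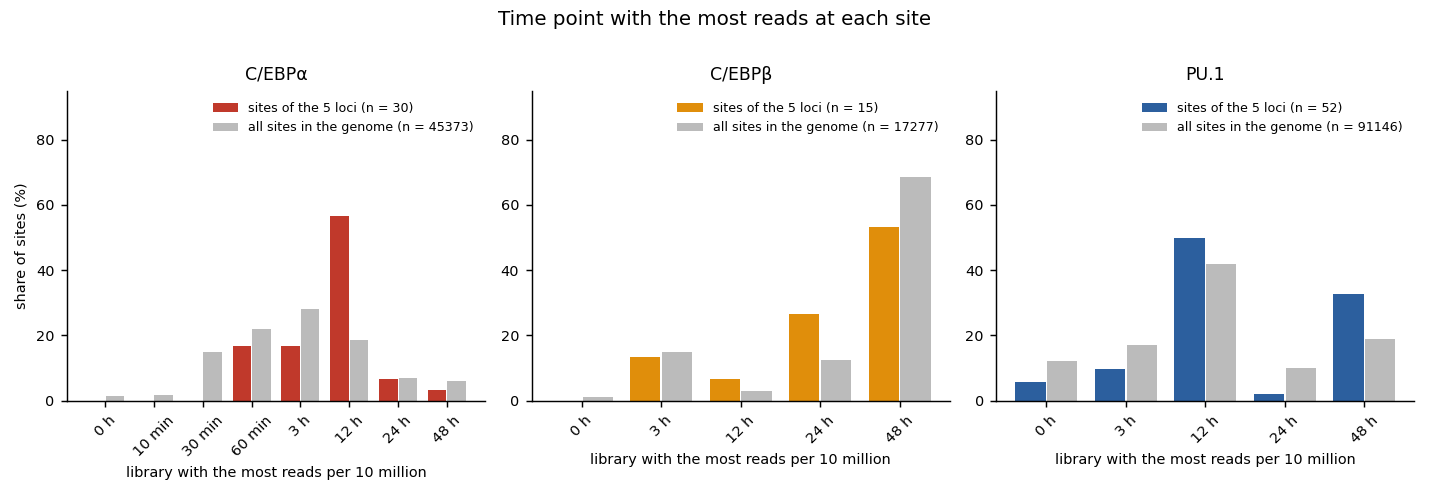
Share of sites in percent (y axis) by the library with the most normalised reads (x axis) for each factor, for the sites of the 5 loci in colour and all sites of the genome in grey. For C/EBPα the coloured bar at 12 hpi (56.7%) stands above the grey one (18.6%), and for PU.1 both have their tallest bar at 12 hpi (50.0% and 41.8%).

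Other genes of the oxidase family were described from a list of 12 chosen by function. The list held Rac1 and Rap1a (small GTPases), Cybc1 (a chaperone of the core, BC017643 in the annotation), Nox1, Nox3, Nox4, Noxo1, Noxa1, Duox1, Duox2, Duoxa1 and Duoxa2. Of the 12, 0 had C/EBPα at 0 and 4 at 48 hpi, 0 had C/EBPβ at 0 and 4 at 48 hpi, and 10 had PU.1 at both times. Duox1, Duox2, Duoxa1 and Duoxa2 are neighbours whose loci overlap, so the 10 count some PU.1 regions more than once. Of all gene loci 10.7% had C/EBPα at 0 and 30.7% at 48 hpi, 3.08% and 39.7% had C/EBPβ, and 63.8% and 70.2% had PU.1. The 4 with C/EBPα at 48 hpi were Rac1, Rap1a, Cybc1 and Noxo1, with 1 region each. Those with C/EBPβ at 48 hpi were Rac1, Cybc1 and Nox1 with 1 region each and Rap1a with 3. Rap1a had 9 C/EBPα regions at 60 min and 1 from 12 hpi on. Nox3, Nox4 and the dual oxidase genes had no C/EBP region in any library, and Nox3 and Nox4 had PU.1 at 12 hpi only.

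For each of the 5 genes the 2 genes whose start followed the most similar course were found. Likeness was Pearson's r of log2 normalised reads within 1 kb of the start, centred within each factor, over the 18 libraries and 6163 genes. The libraries are shared by all genes, so r is a description only. The nearest were Tmed2 (0.917) and Fam63a (0.897) for Cybb, Dnpep (0.953) and Stard7 (0.944) for Cyba, Polg2 (0.938) and Kif21b (0.900) for Ncf1, BC031781 (0.919) and Cited2 (0.891) for Ncf4, and Rasgrp2 (0.891) and Shc1 (0.870) for Rac2.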

How the data were processed

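ChIP-seq read positions of 18 libraries were used as deposited: reads aligned by the authors to build mm9, unique matches only, each with its position and strand, which are neither counts per feature nor scores. Bowtie and HOMER are named in the submitters' notes, with no version given. Here 1 read per position and strand was kept, which removed 2.51% of the C/EBPα reads of 3 hpi and at most 0.187% of any other library. For counting, reads were moved 75 bp inward, counted in 200-bp bins or within 200 bp of a centre, and scaled to 10000000 reads per library. Regions were called per library by rebuilt HOMER rules: a library-specific threshold of 6 to 12 reads listed by the authors, a window of 56 to 242 bp worked out from it, 4-fold over 10 kb, a local Poisson p of 0.0001, and reads moved to the middle of the fragment, whose length (99 to 256 bp) was estimated from the strands. The caller was tested on simulated reads.

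Exact Poisson and exact conditional binomial 95% intervals cover counting error only. A count of 0 was read as at most 3 reads only where log2 ratios were recomputed under alternatives. In the counts of sites that rose, 0 reads before induction and any reads at the last time point counted as a rise. A gene start was the outermost start of its CCDS transcripts, where it had any. Described sites were those within 1 kb of a start and those with the most reads of each factor in any 1 library. Other sites are named after their values were seen. The 5 genes, the list of other oxidase genes and the sequence words were chosen with earlier results of these data known. Python 3.11.15, NumPy 2.4.6, SciPy 1.17.1, Numba 0.67.0 and Matplotlib 3.10.9 were used. No control (input) library was used here. 1 item of the list of oxidase genes is not reported here.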

Additional observations from a re-analysis of the deposited data

How the results depend on the processing

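Counts of sites were recomputed under 9 alternatives of calling, joining or locus, and 172 of 183 values stayed within 1.5 times the first. With the tag threshold raised 1.5 times, sites with C/EBPβ in any library were 9, with C/EBPα at 48 hpi 8, with C/EBPβ at 48 hpi 8 and with all 3 factors 6. With libraries thinned to the smallest of their factor, sites with C/EBPβ in any library were 9, with C/EBPα at 60 min 8, with C/EBPβ at 48 hpi 5, with all 3 factors 5 and with both factors at once 3. With one 200-bp window, 2 sites had C/EBPα or C/EBPβ at 0 hpi, and with reads moved 75 bp for calling 1 had, against 0. The causes were not tested, except that thinning and a higher threshold leave fewer regions by construction.

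The log2 ratios of 48 to 0 hpi were recomputed under 5 alternatives, and 250 of 252 values stayed within the first interval, while 10 changed sign, all with a first interval that includes 0, such as C/EBPα at the start of Cyba (-0.84, and 0.69 with reads within 500 bp). The exceptions, with reads within 100 bp, were C/EBPβ at Cybb +6.48 kb (1.49 against the 3 reads a count of 0 allows, interval from 0.92) and C/EBPα at the start of Ncf4 (2.86). No paired analysis was possible because each factor and time point had 1 library. The C/EBPβ libraries had the fewest reads, 2901164 to 5843194, so a C/EBPβ region not called may be a matter of depth.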
